A study of Mus musculus with 6 samples.

Results

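The genes described here are the core of transforming growth factor beta (TGF-beta) signalling: the 3 ligands Tgfb1, Tgfb2 and Tgfb3, the 3 receptors Tgfbr1, Tgfbr2 and Tgfbr3, and the SMAD proteins Smad2, Smad3, Smad4 and Smad7. They were taken by name, and every array probe whose RefSeq accession belongs to 1 of them was used, 10 of 20659 genes named on the array and 15 of its 39429 probes, printed as 33 of 43020 spots. The cells were C2C12, an established line of mouse myoblasts that divides in serum-rich medium and can fuse into myotubes. Per the labels, cells in medium with 10% serum were transfected at 70 to 80% confluence, either with a negative control siRNA (siRNA-NC) or with an siRNA that targets Meg3, an imprinted long non-coding RNA (siRNA-MEG3), to profile expression after Meg3 is targeted. The siRNA dose is written as "20 um" for both groups. Both groups are the same line without any other genetic change in the labels, and each has 3 single-colour Agilent arrays of total RNA that the labels call biological replicates. How long the cells were kept before RNA was taken is not stated in the labels.

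TGF-beta ligands are secreted in a latent form, held by latency proteins and stored in the matrix until they are released. The free ligand binds the type II receptor Tgfbr2, often handed over by the co-receptor Tgfbr3, and the type I receptor Tgfbr1 then phosphorylates Smad2 and Smad3, which enter the nucleus with Smad4 and act on target genes such as Ccn2. Smad7 is induced by the pathway and acts back on the receptors as its inhibitor. In cultured myoblasts TGF-beta is known as an inhibitor of differentiation and fusion.

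No probe of these 10 genes passed the test between the groups. Of the 15 probes, 14 from 9 genes could be tested, and 0 were higher and 0 lower with siRNA-MEG3 (limma, Benjamini-Hochberg adjusted p under 0.05), where 0.870% and 0.350% of all 26321 tested probes were (1.22% in either direction). At an unadjusted p under 0.05 there were 3 of 14, both Tgfb2 probes and 1 of the Tgfbr1 probes, where 18.4% of all probes had one. Both Tgfb2 probes read higher on every siRNA-MEG3 array than on any siRNA-NC array, by 1.56-fold and 2.07-fold. A Tgfbr1 probe read 4.01-fold lower. For several others, among them Tgfb1 and 1 probe each of Tgfbr1 and Smad4, the siRNA-NC arrays differed more among themselves than the groups did.

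The arrays bear on all of this. Per array, 62.8 to 75.2% of spots were well above background, and 0 spots were saturated. On siRNA-MEG3 arrays 1 and 3 the same single spots deviated from their probe means (r = 0.98; the 14 other pairs had -0.19 to 0.52), as in repeat scans of 1 hybridised array. On siRNA-NC arrays 1 and 3 the variance between probes was that of repeated spots (ratio 1.04). siRNA-MEG3 arrays 1 and 3 had a ratio of 2.10. siRNA-MEG3 array 2 had ratios of 1.33 and 1.45 against them, so by ratio alone it was no further from them than they were from each other. The ratio is relative to the spread of repeated spots. In size, the log2 differences between probes had an SD of 0.020 for arrays 1 and 3. Against array 2 the SD was larger, 0.137 for array 1 and 0.143 for array 3. Whether siRNA-MEG3 array 2 held other RNA was not tested. It lacked their shared spot deviations (r of -0.17 and -0.19) and was kept as a separate sample. Each of the 2 other pairs was averaged and counted as 1 sample, so every test is between 2 samples and 2 samples, and the labels do not say that the replicates came from separate cultures: p-values then measure only the spread between these samples, which may be technical. siRNA-NC array 2 stood apart from siRNA-NC array 1 (ratio 159). Per the file headers, the groups were scanned on different days, so scan day and group cannot be told apart. The check of the targeted gene was not possible: of 3 Meg3 probes, 1 was well above background on 1 siRNA-NC array and none on any other array, so the array does not check the labels. Desmin and the other myoblast markers Cdh15, Myf5, Myod1 and Vcam1 were well above background on all 6 arrays, and Pax7 on all siRNA-NC arrays and 1 siRNA-MEG3 array.

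The values below are log2 relative signals: the log2 of a probe's processed signal over the 75th percentile of its array, so that 0 is the level of that percentile. Values given in a row of 3 are arrays 1, 2 and 3 of a group, in that order. They compare arrays for the same probe. Signals of different probes are not set against each other, since probes differ in how well they bind. The summed levels of marker lists are an exception. They add every probe of a list, tested or not, and so follow its brightest probes. In bulk RNA of this kind, fewer cells that express a gene and less RNA per cell cannot be told apart.

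Tgfb2 encodes a ligand that needs Tgfbr3 for high-affinity binding to the signalling receptors. Its first probe, A_51_P317640, read -0.05, 0.02 and -0.08 in the siRNA-NC controls and 0.63, 0.59 and 0.65 after siRNA-MEG3. The second, A_65_P10913, read -0.74, -0.34 and -0.82 in the siRNA-NC controls and 0.68, 0.26 and 0.76 after siRNA-MEG3. All siRNA-MEG3 arrays lay above all siRNA-NC arrays for both probes, and on the second probe siRNA-NC array 2 was the highest control and siRNA-MEG3 array 2 the lowest treated array. The difference was 0.64 ± 0.20 (log2, SE, 2 samples per group; 95% interval 0.09 to 1.18; unadjusted p = 0.0308, limma adjusted p = 0.222) for the first probe. It was 1.05 ± 0.30 (0.24 to 1.86; unadjusted p = 0.0219, limma adjusted p = 0.195) for the second. Neither interval includes 0, and neither difference passed the adjusted test. The 2 probes share the gene and the RNA and are not separate samples. With all 6 arrays taken as 6 samples, which counts the repeat scan as a sample, both passed (limma adjusted p = 0.00702 and 0.0108).

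Tgfb2 and Tgfbr1 held the probes with the lowest p-values of the set, so the 250 bases before their transcription starts are shown, from RefSeq on GRCm38.p6, as chr1:186705990-186706239 on the minus strand for Tgfb2 and chr4:47352972-47353221 on the plus strand for Tgfbr1. Capitals mark the E-box letters CANNTG, bound by basic helix-loop-helix factors, and the SMAD-binding letters CAGAC, both searched on both strands.
Tgfb2: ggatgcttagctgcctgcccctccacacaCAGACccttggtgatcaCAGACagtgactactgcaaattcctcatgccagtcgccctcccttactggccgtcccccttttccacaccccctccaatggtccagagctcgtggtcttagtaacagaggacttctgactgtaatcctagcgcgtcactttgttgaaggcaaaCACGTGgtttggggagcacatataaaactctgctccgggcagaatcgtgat
Tgfbr1: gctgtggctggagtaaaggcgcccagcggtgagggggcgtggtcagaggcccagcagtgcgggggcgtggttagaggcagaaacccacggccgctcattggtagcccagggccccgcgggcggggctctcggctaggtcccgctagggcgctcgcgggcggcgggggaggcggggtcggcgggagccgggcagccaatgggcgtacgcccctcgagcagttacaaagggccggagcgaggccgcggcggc
The Tgfb2 window holds CAGAC at 221 and at 204 bases before the start and 1 E-box, CACGTG, at 51 bases before it. It also holds TATAAA, left in lower case. The Tgfbr1 window is 74.8% G and C and has none of these letters. Of 32851 promoter windows of the same length, 66.2% hold a CANNTG, 42.2% a CAGAC on either strand, 6.02% CACGTG and 12.4% TATAAA on either strand. A match describes these letters only, and the arrays measured nothing at these sites. Windows were also searched for Tgfb1, Tgfbr2 and Smad3: Tgfbr2 has a CAGAC at 160 bases before its start, and Tgfb1 and Smad3 have none of the marked letters. A second Tgfbr1 window, chr4:47385966-47386215 on the plus strand, holds CATTTG, an E-box, and a CAGAC.

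Tgfb1, the ligand most studied in muscle, showed a split inside the control group. Its probe A_51_P390715 is printed 10 times on each array and read -2.77, -0.89 and -2.72 in the siRNA-NC controls and -1.08, -1.11 and -1.10 after siRNA-MEG3. siRNA-NC array 2 read 3.61-fold above the mean of siRNA-NC arrays 1 and 3 and above all siRNA-MEG3 arrays, so the groups overlapped. The 10 spots of an array had an SD of 0.05 to 0.12 (log2), far less than that gap. The difference between groups was 0.72 ± 0.67 (95% interval -1.10 to 2.54, limma adjusted p = 0.635). Without siRNA-NC array 2 it was 1.65. That fit has 1 siRNA-NC sample, and 0 of its 26504 probes passed: the lowest adjusted p of any probe was 0.115 by limma, so a call lost there does not show a smaller difference. On siRNA-MEG3 array 1, 5 of the 10 spots lay in dark blocks, blocks of 30 by 17 spots in which over 5% read more than 4-fold below siRNA-NC. Their mean difference from siRNA-NC was 1.03, against 1.02 for the 5 spots outside. In such block values siRNA-NC is the plain mean of its 3 arrays, scaled over clean spots. They are therefore not on the footing of the fitted difference.

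For Tgfb3, the third ligand, siRNA-NC array 2 again stood apart, here below siRNA-NC arrays 1 and 3. Its probe A_51_P124748, also printed 10 times, read 4.24, 3.65 and 4.23 in the siRNA-NC controls and 3.68, 3.66 and 3.70 after siRNA-MEG3. siRNA-NC array 2 lay just below all siRNA-MEG3 arrays, while siRNA-NC arrays 1 and 3 lay above them. The 10 spots of an array had an SD of 0.05 to 0.08. The difference was -0.27 ± 0.28 (95% interval -1.03 to 0.50, limma adjusted p = 0.678), and -0.55 on the siRNA-MEG3 mean against siRNA-NC arrays 1 and 3 alone.

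**Figure D1:**
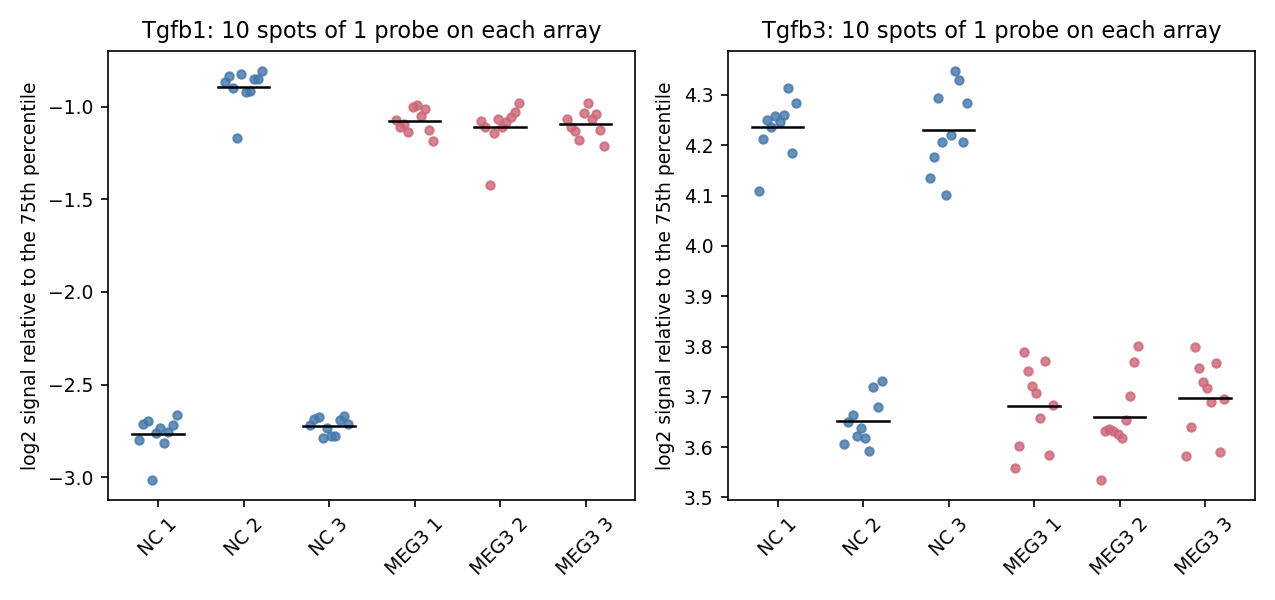
Log2 relative signal (y axis) of each of the 10 spots of the Tgfb1 probe (left) and the Tgfb3 probe (right) on the 6 arrays (x axis), siRNA-NC in blue and siRNA-MEG3 in red, with the array mean as a bar. The spots of an array cluster tightly, and siRNA-NC array 2, at -0.89 for Tgfb1 and 3.65 for Tgfb3, sits with the siRNA-MEG3 arrays and not with siRNA-NC arrays 1 and 3.

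Among the receptors, the probes of Tgfbr1, the type I receptor kinase, gave different values. Probe A_55_P2137206 read 1.74, 1.56 and 1.95 in the siRNA-NC controls and -1.06, 0.45 and -1.04 after siRNA-MEG3. All siRNA-MEG3 arrays lay below all siRNA-NC arrays, and array 2 lay well above the repeat scans 1 and 3. The difference was -2.0 ± 0.56 (95% interval -3.53 to -0.47, unadjusted p = 0.0216, limma adjusted p = 0.194). It is the largest in size of the 14 probes, and the smallest difference called among all probes was 1.86 in size. The siRNA-MEG3 samples had an SD of 1.06 and the siRNA-NC samples one of 0.20. With siRNA-MEG3 array 2 left out the difference was -2.76 and passed (limma adjusted p = 1.70e-05), the spread then coming from the control samples alone. It passed as well with all siRNA-MEG3 arrays averaged to 1 sample, a setting chosen after seeing the data in which the spread again came from the siRNA-NC samples alone (-2.25, limma adjusted p = 0.00124), and with 6 arrays as 6 samples (-2.30, limma adjusted p = 0.0153). This probe is a single spot, and of the 45 spots measured within 5 rows and columns of it, 4 on siRNA-MEG3 array 1, 1 on array 2 and 4 on array 3 read more than 4-fold below siRNA-NC. The probe's own block was dark on none of these arrays. It had 3.93%, 1.75% and 3.06% of its spots that low, against block medians of 3.29%, 1.46% and 3.27%. The part of the low neighbours in the result was not tested.

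The other Tgfbr1 probe, A_55_P2137211, was near background and well above it on only 2 of the siRNA-NC arrays. It read -5.66, -4.16 and -6.48 in the siRNA-NC controls and -4.80, -5.07 and -4.88 after siRNA-MEG3, with the siRNA-NC arrays on both sides of the siRNA-MEG3 arrays. The difference was 0.16 ± 0.69 (95% interval -1.72 to 2.04, limma adjusted p = 0.931). The files do not say which transcript parts the probes read, and the difference between the probes was not tested.

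Tgfbr2, the type II receptor that binds the ligand, read 4.49, 4.21 and 4.45 in the siRNA-NC controls and 4.68, 4.73 and 4.67 after siRNA-MEG3 with probe A_51_P450573. The siRNA-MEG3 arrays lay above all siRNA-NC arrays by a small margin, with a difference of 0.36 ± 0.22 (limma adjusted p = 0.465). Its other probe, A_55_P2107288, read -3.32, -2.73 and -3.29 against -3.32, -3.27 and -3.27, so only siRNA-NC array 2 stood out, above the rest. That gave -0.26 ± 0.28 (limma adjusted p = 0.680), and 0.02 without siRNA-NC array 2.

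Tgfbr3, the co-receptor betaglycan, read 2.28, 1.94 and 2.28 in the siRNA-NC controls and 1.69, 1.73 and 1.74 after siRNA-MEG3 (probe A_65_P16059). All siRNA-MEG3 arrays lay below all siRNA-NC arrays, and the difference was -0.39 ± 0.23 (95% interval -1.01 to 0.24, limma adjusted p = 0.463). Over the 5 receptor probes, 1 read higher and 2 lower on all siRNA-MEG3 arrays than on any siRNA-NC array. Of all tested probes, 24.8% read higher and 22.5% lower in this way.

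The receptor-regulated SMADs showed no separation of the groups. Smad2 (probe A_55_P1999710) read 1.37, 0.98 and 1.45 in the siRNA-NC controls and 1.44, 1.24 and 1.42 after siRNA-MEG3, a difference of 0.14 ± 0.26 (95% interval -0.55 to 0.84, limma adjusted p = 0.822). Smad3 probe A_55_P2101001 read 3.89, 2.87 and 3.63 against 3.51, 3.41 and 3.51, with siRNA-NC array 2 the lowest and siRNA-NC array 1 the highest of all (difference 0.14 ± 0.37, limma adjusted p = 0.882). Its spot lay in a dark block on siRNA-MEG3 arrays 1 and 3, where it differed from the plain mean of the 3 siRNA-NC arrays by 0.02 on both. The second Smad3 probe, A_51_P441022, read -5.97, -5.21 and -6.17 against -5.97, -5.85 and -6.18 and was well above background on 1 siRNA-MEG3 array. Its difference was -0.32 ± 0.36 (limma adjusted p = 0.704).

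Smad4, the partner that all receptor-regulated SMADs share, had a wide split among the controls with 1 of its probes. Probe A_55_P2112617 read -1.14, 1.06 and -1.16 in the siRNA-NC controls and 1.11, 0.98 and 1.09 after siRNA-MEG3. siRNA-NC array 2 was 4.62-fold above the other siRNA-NC arrays and within the range of the siRNA-MEG3 arrays. The difference between groups was 1.08 ± 0.79 (95% interval -1.06 to 3.23, limma adjusted p = 0.546), and 2.19 without siRNA-NC array 2, where no probe passed. The spot lay in a dark block on siRNA-MEG3 array 1 and in none on arrays 2 and 3. The other Smad4 probe, A_55_P2112622, read 4.20, 3.67 and 4.21 against 3.96, 3.99 and 3.99. There siRNA-NC array 2 was the lowest array of all and siRNA-NC arrays 1 and 3 the highest, with a difference of 0.05 ± 0.27 (limma adjusted p = 0.951).

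Smad7, the inhibitory SMAD, could not be tested as the others were. Its spot (probe A_51_P403636) was marked as non-uniform on siRNA-MEG3 arrays 1 and 3 and lay in a dark block on both, with 9.38% and 10.2% of their spots more than 4-fold under siRNA-NC. With such spots kept it read 1.16, 0.85 and 1.26 in the siRNA-NC controls and 0.48, 0.59 and 0.54 after siRNA-MEG3. The siRNA-MEG3 arrays were all lower, array 2 included, whose spot carried no mark and lay in no dark block. The difference on those values was -0.48 ± 0.23 (unadjusted p = 0.104, limma adjusted p = 0.373). In the table of log2 values that the authors deposited, the same fit gave -0.46 (limma adjusted p = 0.289).

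**Figure D2:**
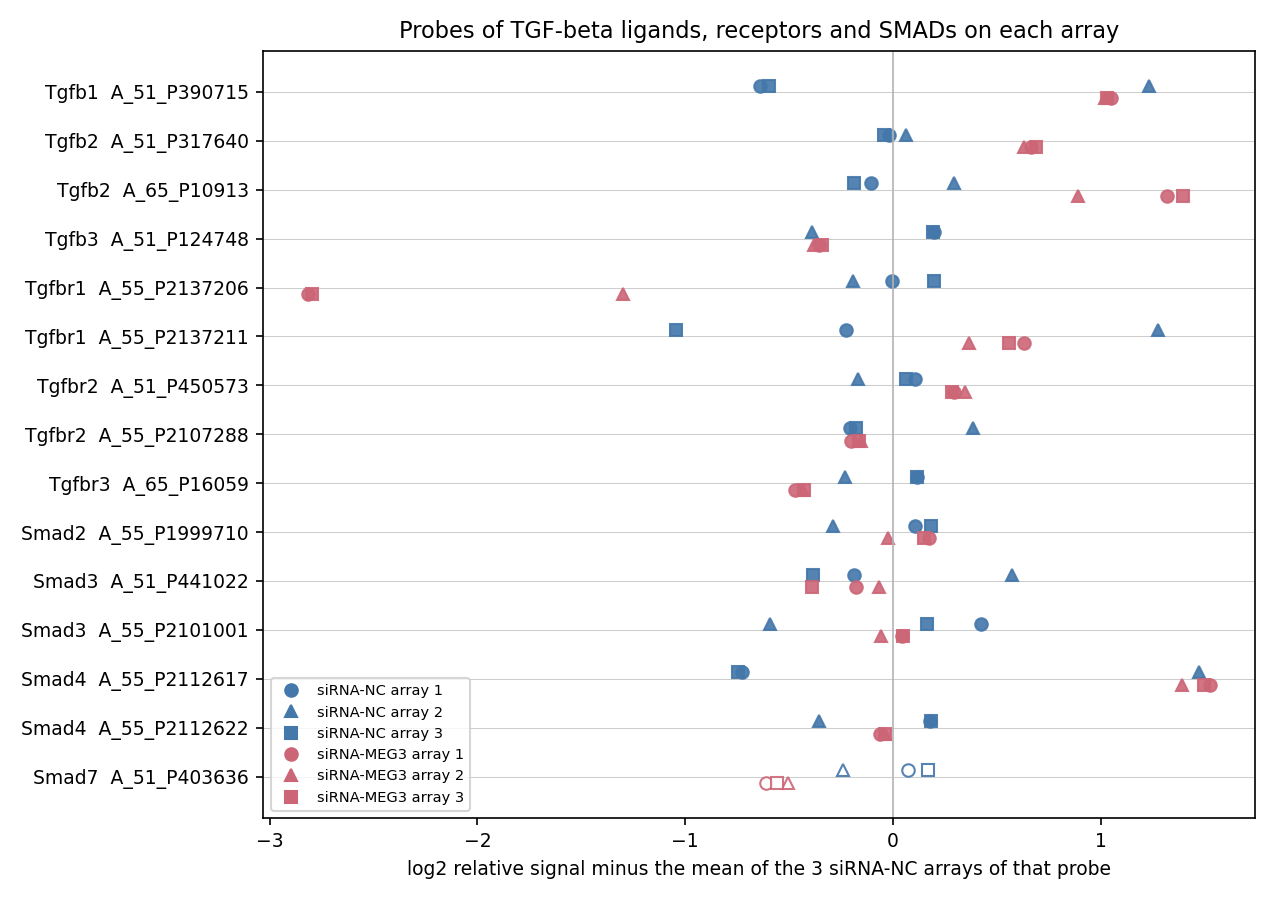
Each probe of the TGF-beta ligands, receptors and SMADs (rows) on each array, as log2 relative signal minus that probe's mean over the 3 siRNA-NC arrays (x axis), siRNA-NC in blue, siRNA-MEG3 in red, and the array number as the marker shape. Open markers are Smad7 with its marked spots kept. siRNA-NC array 2 (blue triangle) lies far from the other blue points for Tgfb1, Tgfbr1 A_55_P2137211 and 1 Smad4 probe, while Tgfb2 and the other Tgfbr1 probe separate the groups.

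Across the 14 tested probes, 9 differences were positive and 5 negative, where 12523 of all 26321 were positive and 13798 negative. The median was 0.14 (all probes -0.03) and the median size 0.34 (all probes 0.37). The adjusted p-values ran from 0.194 to 0.951. The arrays of the groups did not overlap for 5 of the 14, 3 higher and 2 lower, where 47.3% of all tested probes did not overlap (24.8% higher, 22.5% lower). A log2 difference of at least 1 in size was found for 3 of 14, against 12.7% of all probes. These counts describe a set chosen by name and carry no test of their own. They do not show that the genes were alike in both groups: the intervals of Tgfb1, of the Tgfbr1 probe near background and of 1 Smad4 probe reach past a 4-fold increase.

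**Figure D3:**
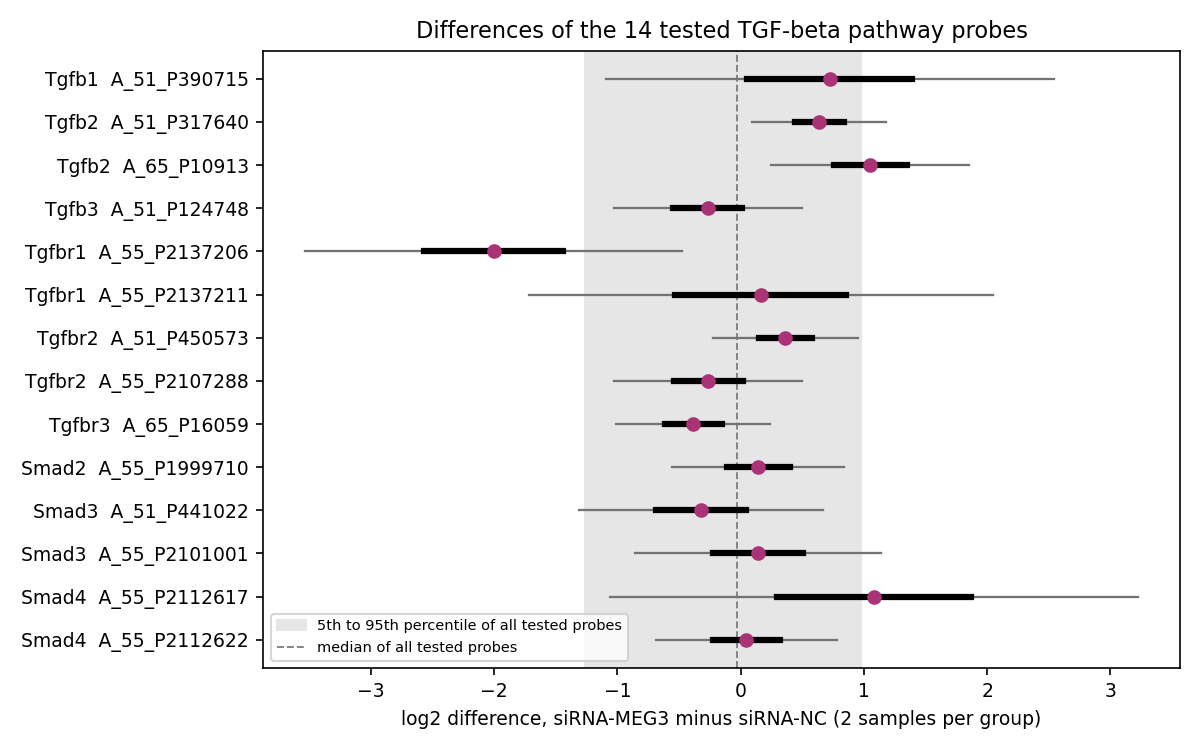
Log2 difference between siRNA-MEG3 and siRNA-NC (x axis; points) for the 14 tested probes (rows), with SE as thick and the 95% interval as thin bars, 2 samples per group. The grey band spans the middle 90% of all tested probes and the dashed line is their median of -0.03. Only the Tgfbr1 probe at -2.0 and the probes at 1.05 and 1.08 lie outside the band, and the intervals of both Tgfb2 probes and of that Tgfbr1 probe leave out 0.

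The spread inside the control group was wide for these genes. siRNA-NC array 2 differed from the mean of siRNA-NC arrays 1 and 3 by a median of 0.56 in size over the 14 probes, against 0.40 over all probes, and by more than 1 for 3 of them (21.4%, against 7.57% of all probes). The siRNA-MEG3 samples differed from each other by a median of 0.08, against 0.13 over all probes. siRNA-NC array 2 lay nearer to the siRNA-MEG3 mean than to the other siRNA-NC arrays for 10 of 14 probes (71.4%), against 45.6% of all probes. The exceptions were both Tgfb2 probes, Tgfbr1 probe A_55_P2137206 and Tgfbr2 probe A_51_P450573. Over the 14 probes, siRNA-NC array 2 read lower wherever siRNA-NC arrays 1 and 3 lay above their 75th percentile. It read higher wherever they lay below it. Probes of the lists below did not all follow this. Mmp2 (4.28, 4.72 and 4.31), Bgn (0.35, 1.68 and 0.36) and Itga5 (0.18, 1.84 and 0.17) went the other way above that percentile. Myf5 (-1.50, -2.53 and -1.47) did so below it. How many of all probes follow the pattern was not counted. The 75th percentile itself was a signal of 2279 on siRNA-NC array 2 and 1232 to 1334 on the other arrays. The part of this in the gaps was not tested.

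The rest of the pathway was followed with 7 lists of its known components, 129 tested probes from 94 genes. Of these, 1 probe was higher and 1 lower with siRNA-MEG3, where 0.870% and 0.350% of all tested probes were. An unadjusted p under 0.05 was reached by 19 of the 129, where 18.4% of all probes reached one. By sign, 12523 of all 26321 tested probes were positive and 13798 negative, beside which the counts of each list stand.

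Among targets of the pathway, 30 of 40 probes from 28 of 32 genes had a positive difference, with a median of 0.40. The 40 include 5 probes of Tpm1 and 3 of Adam12, and probes of a gene are not separate readings. On all siRNA-MEG3 arrays, 21 of the 40 read higher than on any siRNA-NC array and 0 lower, where 24.8% and 22.5% of all probes did. In limma's test, 9 of the 40 had an unadjusted p under 0.05, where 18.4% of all probes had one. A single probe passed the test. Ccn2, which encodes connective tissue growth factor and is a widely used reporter of TGF-beta activity, though other pathways drive it as well, rose. It read 1.22, 1.00 and 1.23 in the siRNA-NC controls and 3.25, 3.27 and 3.27 after siRNA-MEG3. All siRNA-MEG3 arrays lay far above all siRNA-NC arrays, 4.44-fold on the group means (2.15 ± 0.21, limma adjusted p = 0.0433). With the replicate number as a block the adjusted p was 0.0668 by limma, without siRNA-NC array 1 it was 0.0513 and with no filter on dim probes 0.117, at differences of 2.15 each time. Without siRNA-NC array 2, where no probe passed, the difference was 2.04. Some other targets lay near 0, among them Snai1, a repressor of epithelial genes (0.03 ± 0.26), and Acta2, smooth muscle actin (0.04 ± 0.31), both picked after their values were seen.

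SMAD regulators, the ubiquitin ligases, deubiquitinases, co-repressors and anchors that act on SMADs and receptors, had 28 tested probes from 20 of 21 genes, 16 positive and 12 negative. A single probe fell: A_66_P132446 of Usp15, a deubiquitinase reported to act on the type I receptor and on SMADs. It read -0.46, -0.96 and -0.35 in the siRNA-NC controls and -3.82, -3.90 and -3.84 after siRNA-MEG3, 9.06-fold lower (-3.18 ± 0.27, limma adjusted p = 0.0338). The other Usp15 probe, A_55_P2099785, read 2.56, 2.11 and 2.56 against 2.22, 2.35 and 2.20, where the groups overlapped (-0.05 ± 0.25, limma adjusted p = 0.938). The probes of Usp15 thus gave different answers, and no change of the gene as a whole can be read from them. Without siRNA-NC array 2, where no probe passed, the first probe differed by -3.45, and with no filter on dim probes by -3.18 (limma adjusted p = 0.0796).

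The other lists had 0 probes past the threshold in limma's test. Among co-receptors and decoys, proteins that bind the ligands or compete for the receptors, 8 of 9 probes were negative (median -0.53), with an unadjusted p under 0.05 for 2. Fmod, which encodes the ligand-binding proteoglycan fibromodulin, had the lowest p: it read -2.58, -1.86 and -2.58 against -3.85, -3.24 and -3.86, below all siRNA-NC arrays (-1.32 ± 0.38, limma adjusted p = 0.199). Among latency and activation genes, 8 of 14 probes were positive and 1 had an unadjusted p under 0.05. That was Ltbp2, a matrix protein of the family named for binding latent TGF-beta, at 4.69, 4.14 and 4.75 against 3.53, 3.61 and 3.60 (-0.84 ± 0.28, limma adjusted p = 0.240). Whether Ltbp2 itself binds it was not measured here.

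The SMADs of the bone morphogenetic protein branch and its inhibitor gave 6 probes, 3 positive and 3 negative. Smad6, the inhibitory SMAD of that branch, read -0.13, -0.26 and -0.15 in the siRNA-NC controls and -0.86, -0.99 and -0.85 after siRNA-MEG3, with no overlap (-0.72 ± 0.21, unadjusted p = 0.0229, limma adjusted p = 0.198). Its siRNA-NC arrays lay close together, unlike those of Tgfb1 or Smad4. Among the transcription factors and co-activators that work with SMADs, 2 of 16 probes had an unadjusted p under 0.05, E2f4 with the lower: -0.04, -0.46 and -0.02 against -1.80, -1.95 and -1.84 (-1.64 ± 0.25, limma adjusted p = 0.0843). E2f4 is a cell-cycle repressor that was found with Smad3 on target promoters.

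In the non-SMAD branch, which runs through Map3k7, small GTPases and stress kinases, 12 of 16 probes were positive and 1 had an unadjusted p under 0.05.

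**Figure D4:**
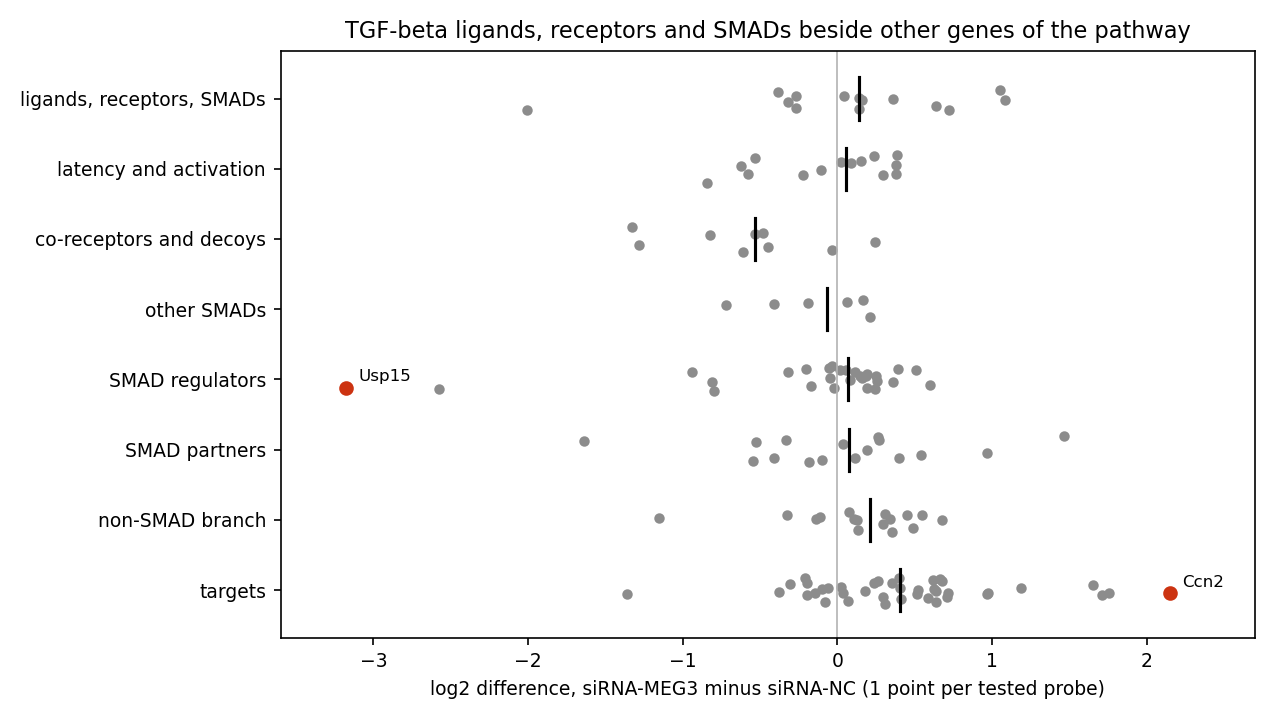
Log2 difference between siRNA-MEG3 and siRNA-NC (x axis) of each tested probe (1 point each) of the ligands, receptors and SMADs and of the 7 lists of other pathway genes (rows, spread vertically to separate points). The black bar is the median of a row and red points passed the test: Ccn2 at 2.15 and 1 Usp15 probe at -3.18, with no red point among the ligands, receptors and SMADs.

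Markers of differentiated muscle differed between the groups on the same arrays. Of 12 tested myotube marker probes, 9, from 6 of 9 measured genes, were higher with siRNA-MEG3 and 0 lower. Of all tested probes, 0.870% were higher and 0.350% lower. Among the 9, Myl1 probe A_52_P273120 was kept by the filter only through the siRNA-MEG3 arrays, where it was high. The 4 genes with the smallest p were Myl1, a myosin light chain (6.52 ± 0.32, and at least 61.5-fold higher with a second probe that was not well above background on any siRNA-NC array), the embryonic myosin heavy chain Myh3 (6.67 ± 0.33), the calcium-storage protein Casq2 (5.70 ± 0.28) and the troponin Tnnt3 (3.92 ± 0.20), each with a limma adjusted p of 0.0210. Without siRNA-NC array 2, where no probe passed, Myh3, Casq2 and Tnnt3 differed by 6.29, 5.97 and 3.86. With no filter on dim probes the differences were the same and the limma adjusted p of the 4 genes was 0.0601 to 0.0611. The summed relative level of the list was 7.59 to 9.0 on the siRNA-NC arrays and 60.4 to 63.6 on the siRNA-MEG3 arrays. On the siRNA-NC arrays the sum came mostly from Acta1, at 2.92, 2.94 and 2.60 (log2). Acta1 did not pass the test (0.64 ± 0.21, limma adjusted p = 0.230). Of the 10 genes of the list, Mef2c was well above background on only 1 array of each group. Of 7 myoblast marker probes 0 passed in limma's test, and 3 had an unadjusted p under 0.05, in both directions: Myf5 read 7.70-fold lower, Myod1 4.64-fold higher and Cdh15 2.52-fold higher with siRNA-MEG3 (limma adjusted p = 0.0739, 0.124 and 0.103). Their summed level was 20.5 to 23.5 against 25.8 to 26.7, with the Vcam1 probe A_51_P210956 by far the brightest (4.10 to 4.39 against 4.42 to 4.47, log2). Fibroblast markers summed to 3.51 to 4.83 against 2.43 to 2.45, a sum led by the bright Pdgfra. In limma's test 0 of 4 probes passed and 2 had an unadjusted p under 0.05. Those 2 were lower with siRNA-MEG3, Pdgfra (-0.74 ± 0.25) and Pi16 (-1.75 ± 0.31). Lum (0.02 ± 0.30) and Thy1 (0.30 ± 0.23) overlapped between the groups, so the list did not fall as a whole. Dpt was not well above background on any array. Of the epithelial markers, Krt14 was well above background on all 6 arrays, with overlapping groups (-0.04 ± 0.23), and Cdh1 and Epcam on none. Of the smooth muscle markers, Cnn1 and both Smtn probes were on all 6 and Myh11 on none. Cnn1 read higher on every siRNA-MEG3 array than on any siRNA-NC array (0.73 ± 0.25, unadjusted p = 0.0405, limma adjusted p = 0.248), and the Smtn values overlapped. The part of these differences in the values of Ccn2, Usp15 and the ligands, receptors and SMADs was not tested.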

How the data were processed

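RNA of 6 samples, 3 with siRNA-NC and 3 with siRNA-MEG3, was measured on single-colour Agilent arrays. The deposited scanner files come from Feature Extraction 11.0.1.1, per the file headers, and give a processed signal intensity per spot, background-subtracted and detrended within its array. The authors' deposited table holds log2 values with the same upper quartile on every array; per the labels, repeated probes were averaged and a normalization factor came from probes whose intensity reached 30 in each sample, and the exact step between arrays stays unknown.

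From the scanner output, control spots and spots marked as outliers were left out, spots of a probe were averaged, and log2 processed signals were set against each array's 75th percentile over all 39429 probes, outlier spots included in that percentile. The first fit had taken the percentile over each array's own clean probes. It was replaced after its results were seen, because the arrays then used different probes, and it stays among the alternatives. A probe was kept if every array of either group read it well above background and every sample had a usable spot, and each probe was tested on its own, 26321 in all. siRNA-MEG3 arrays 1 and 3 and siRNA-NC arrays 1 and 3 were averaged, as judged on 227 probes printed 10 times. The test between groups was that of limma 3.58.1, run in R 4.3.3 (lmFit, eBayes, 2-sided, group as the only term, 2 residual and 2.21 prior degrees of freedom), with Benjamini-Hochberg adjustment over all kept probes and a threshold of 0.05. The script was tested on simulated data. The number of arrays limits the precision. For a probe not well above background on any array of a group, the fold is a bound taken from the dimmest measured probes of each array.

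Probes were named through RefSeq accessions (27234 named, 12195 not). The RefSeq table gives GRCm38.p6 and the array design an older assembly, so no probe coordinates are given. The genes and lists were chosen with earlier results of these data known. Named were every ligand, receptor and SMAD probe; in each pathway list the genes past the threshold, otherwise the gene with the smallest p; and up to 4 called muscle markers. In the non-SMAD list the gene named by this rule is not reported here. Snai1, Acta2 and the non-muscle markers were named outside that rule. Alternatives covered the filter, the scaling, the background correction, the authors' table, outlier spots, the probe per gene, how arrays count as samples, the replicate block and leaving out each array. Same-numbered arrays of the groups did not deviate together (r of -0.03 to -0.04), so numbers were not taken as pairs.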

Additional observations from a re-analysis of the deposited data

How the results depend on the processing

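Of 301 values of the 14 tested ligand, receptor and SMAD probes under 22 alternatives, 285 kept their direction, 16 reversed and 5 passed the threshold, and the median difference of these probes ranged from 0.03 to 0.31. With 6 arrays as 6 samples, 2 of the probes were higher and 1 lower, with 32 pathway list probes and 6653 probes in all past the threshold; the adjusted p of the Tgfb2 probes then was 0.00702 and 0.0108, over a range up to 0.761 and 0.620. With 5 samples the counts were 0 and 0, with 13 and 2137; with siRNA-MEG3 averaged to 1 sample, chosen after seeing the data, 0 higher and 1 lower, with 8 and 1389. Leaving out 1 array gave 0 higher each time, 0 to 1 lower, 0 to 11 pathway probes and 0 to 3188 probes. The lowest came without siRNA-NC array 2 (8910 probes at an unadjusted p under 0.05) and the highest without siRNA-MEG3 array 2; either leaves a group with 1 sample, assumed to vary like the other group. Without siRNA-NC array 1 the pathway count was 1. With no filter, 0 pathway probes and 0 of all 38916 passed (5204 at an unadjusted p under 0.05 in limma); with normexp 0 and 0 (825), and 166 of all without the 18 spots under a bright speck. The pathway count was 5 with probes above background in both groups, 5 with quantile normalization, 5 with the authors' table and 1 with the brightest probe per gene. The cause was not tested in these cases.

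The replicate block gave 0 higher and 0 lower; with 6 arrays it gave 16 pathway probes and 3121 in all, with 4 samples 1 and 264, the pathway call lost being Ccn2 (adjusted p = 0.0668). The first fit, with the percentile over each array's own clean probes, gave 357 calls and none of these genes. The share of calls that were higher was 71.3%, but 53.5% with 6 samples, 50.2% with 5, 51.2% with 6 and the block, 38.2% without siRNA-MEG3 array 2 and 36.1% with siRNA-MEG3 averaged. Normexp moved the median of all probes to 0.55.

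Values reversed with normexp for Tgfbr2 A_55_P2107288 (0.75), Smad2 (-0.018), Smad3 A_51_P441022 (1.71, and 0.21 without the speck), Smad3 A_55_P2101001 (-0.18) and Smad4 A_55_P2112622 (-0.22). Leaving out 1 array gave ranges across 0, the reversed end without siRNA-NC array 2, for these 5: -0.28 to 0.024, -0.075 to 0.24, -0.43 to 0.11, -0.30 to 0.21 and -0.22 to 0.051. For Tgfbr1 A_55_P2137211 it gave -0.043 (without siRNA-NC array 3) to 1.12. Smad4 A_55_P2112622 also gave -0.046 with 6 samples, with and without the block, and -0.044 with 5, where Smad3 A_55_P2101001 gave -0.0070.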
